A study of Lilium davidii var. unicolor with 6 samples.

Results

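Described here are 119 of the 14140 full-length transcript sequences measured in scales taken from the bulbs of an edible lily, Lilium davidii var. unicolor, all of them listed at or near 0 after methane-rich water and present after distilled water. A transcript belongs to the set if its rounded estimated counts sum to at most 3 over the 3 libraries from methane-rich water (MRW) and to at least 30 over the 3 control libraries. These counts chose the set, so the contrast between MRW and control in it is a description and carries no test. The files hold an identifier and a length for each sequence and no gene names, so each is called here by its length in bases, and its gene, protein or pathway is not given.

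Each biological replicate consisted of 40 detached scales, soaked for 3 h, planted in a wet mix of perlite and vermiculite, irrigated at intervals of 3 days and sampled 10 days after cutting. The scales of the MRW group (n = 3) received 100% MRW, water charged with methane gas, and those of the control group (n = 3) distilled water. Both groups were kept in the dark for the 10 days before sampling, at 25 °C by day and 18 °C by night. RNA came from the basal part of the scales, per the series' design text, and tissue markers could not be checked without gene names. The libraries held 22154086 to 27073894 rounded counts in MRW and 20988765 to 28031456 in control.

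A detached lily scale is a storage organ, a swollen leaf filled with starch, that can form new bulblets at its cut base. During that process stored reserves are broken down and new meristems are laid out, so many genes change their activity together. One gene can also give several full-length transcripts, through alternative splicing, alternative starts and ends, or different alleles, and a collection of full-length sequences lists each of these on its own. Short reads that match several such sequences equally well have to be divided among them, and programs that do so return counts with decimals. The values below are therefore values of single sequences, and the level of a gene as a whole is not measured by them.

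In the MRW libraries the set was nearly silent. The 119 transcripts together held 2, 4 and 8 rounded counts in MRW replicates 1, 2 and 3, against 13060, 9580 and 14089 in control replicates 1, 2 and 3. As a share of each library (on the CPM scale, a count relative to the library total) that was 0.0799, 0.181 and 0.295 CPM before TMM scaling in MRW and 571, 456 and 503 CPM in control. In 110 transcripts every MRW library rounded to 0, and in 107 of these the deposited MRW values were exactly 0. In bulk RNA, fewer cells of a type and less RNA per cell cannot be told apart, and here neither can be told apart from reads assigned to another sequence.

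Counts above 0 in MRW were found in 9 of the transcripts and were low in each. The sequence of 1762 bases had deposited counts of 1, 0 and 0 in MRW replicates 1, 2 and 3, against 352.58, 374.57 and 514.99 in control. The sequence of 1466 bases had the largest single MRW value, with 0, 2.77 and 0 in MRW against 166.75, 42.34 and 138.12 in control. The sequence of 743 bases was the one transcript with a count in more than 1 MRW library, at 1, 1 and 0 in MRW against 19.89, 23.71 and 26.90 in control. A single count in MRW replicate 3 was listed for the sequences of 2014, 1713, 2920 and 704 bases. Counts of 1.82 and 1.76 in that library were listed for those of 2444 and 2439 bases.

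**Figure D1:**
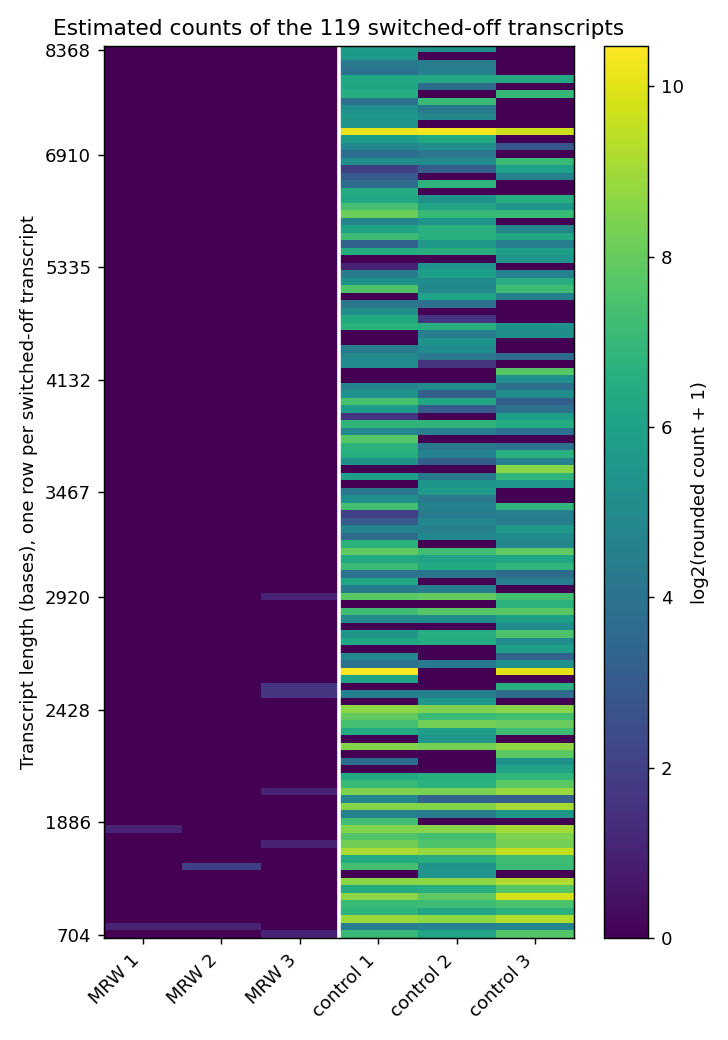
Rounded estimated counts of the 119 switched-off transcripts as log2(count + 1), 1 row per transcript with the longest at the top and 1 column per library, MRW left of control. The MRW columns hold 14 counts in all, and the control columns show gaps at 0 in 51 transcripts, many of them among the longest.

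The transcripts differed widely in their control level. The control sum ran from 30 to 3250 counts with a median of 105, and 58 transcripts had under 100 counts while 11 had 1000 or more. The mean control level, in CPM after TMM scaling, had a median of 1.51 in the set and 21.1 over all transcripts tested. Per length, in the FPKM values of the deposited table, the median control level was 0.43 in the set and 17.9 over all transcripts tested. A control mean of at least 10 FPKM was reached by 8 of the 119, and 80 were under 1 FPKM. The set was thus made up mainly of scarce sequences with a few abundant ones, and the 10 with the highest mean control CPM held 45.2% of its control counts.

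The transcript with the highest control CPM was transcript_HQ_Ld3_vu_transcript166/f2p0/7366, a sequence of 7358 bases. It had 0 counts in each MRW library, against 1145, 1298 and 807 in control replicates 1, 2 and 3. The control libraries lay at 52.7, 60.2 and 30.6 CPM, so control replicate 3 was the lowest. The groups did not overlap, which the rule fixes for any transcript with such counts in every control library. Per length it was at 6.61 ± 2.36 FPKM in control (SD, n = 3), below the median of all transcripts tested.

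The second by mean control CPM was transcript_HQ_Ld3_vu_transcript7777/f2p0/2551, a sequence of 2548 bases. It had 0 counts in each MRW library, against 1418, 0 and 1010 in control replicates 1, 2 and 3. Control replicate 2 was at 0 like the MRW libraries, so the groups overlapped, and the control mean of 34.5 ± 32.8 CPM (SD, n = 3) has a spread nearly as large as itself. A transcript like this one meets the rule although 1 library of distilled-water scales lacked it as fully as the MRW libraries did.

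Most of the other abundant transcripts were even in the control libraries. The sequence of 756 bases had 0 counts in each MRW library and 481, 417 and 615 in control replicates 1, 2 and 3. At 42.0 ± 1.96 FPKM (SD, n = 3) it had the highest control level per length in the set. The sequence of 1207 bases had 0 in each MRW library and 392, 405 and 603 in control. These 2 short sequences were present in every control library, and at such counts the rule leaves no room for their groups to overlap.

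The sequence of 1703 bases had 0 counts in each MRW library and 557, 443 and 735 in control. The sequence of 1941 bases had 0 in each MRW library and 370, 369 and 535 in control. The sequence of 2428 bases had 0 in each MRW library and 396, 337 and 384 in control. Among the 10 with the highest control CPM, the sequence of 1125 bases was the most uneven of those found in every control library, with 0 in each MRW library and 406, 231 and 888 in control. On the CPM scale its control libraries spanned 10.7 to 33.6, with control replicate 3 the highest.

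Steadiest between control libraries were the sequences of 1102, 2296 and 2014 bases. Their coefficients of variation, the SD of the 3 control CPM values divided by their mean, were 0.0573, 0.0731 and 0.0747. The sequence of 1102 bases had 0 counts in each MRW library and 136, 150 and 182 in control. The sequence of 2296 bases had 0 in each MRW library and 361, 312 and 429 in control. If each MRW library is set to 3 counts, a floor that covers counting error only, the MRW mean is 0.119 CPM. By mean control CPM against that floor, the sequence of 2296 bases was 133-fold lower in MRW. That of 756 bases was 182-fold lower and that of 7358 bases 403-fold lower. These ratios leave out the spread between control libraries, which ran from 30.6 to 60.2 CPM for the sequence of 7358 bases.

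**Figure D2:**
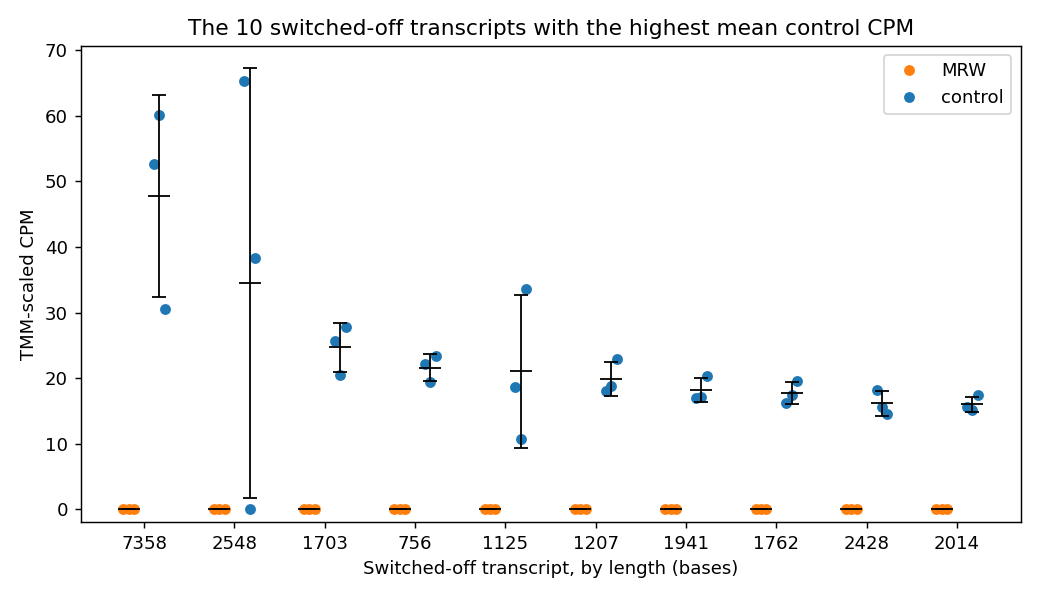
TMM-scaled CPM of the 10 switched-off transcripts with the highest mean control CPM, by length in bases. Points are single libraries, MRW left of control, and black bars give the mean and SD of each group (n = 3). All MRW points lie at or near 0, and control replicate 2 of the 2548-base sequence lies at 0 as well.

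The lowest control sums in the set belonged to the sequences of 6910, 4963 and 6746 bases, with 30 counts each. Their counts in control replicates 1, 2 and 3 were 13, 17 and 0 for the sequence of 6910 bases. They were 17, 13 and 0 for that of 4963 bases, and 7, 0 and 23 for that of 6746 bases. None of the 3 was found in every control library. Just outside the rule on that side lay 9 sequences with at most 3 counts in MRW and 25 to 29 in control. On the other side 13 sequences with a control sum of at least 30 had 4 to 10 counts in MRW. The sequence of 5740 bases had 0, 0 and 4 counts in MRW against 206, 277 and 289 in control, and that of 1362 bases had 6, 0 and 0 in MRW against 315, 266 and 622 in control. These 2 differ from the set by a few counts.

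Presence in the control libraries was itself uneven. Of the 119 transcripts, 68 had at least 1 rounded count in all 3 control libraries, 30 were at 0 in 1 of them and 21 were at 0 in 2 of them. A control library at 0 was thus found in 51 transcripts of the set (42.9%). Among the other 13266 sequences with a control sum of at least 30 it was found in 157 (1.18%). Scarce sequences reach 0 more readily, so the shares are also given by control sum. From 30 to under 100 control counts they were 67.2% of the set and 16.0% of the others, and from 100 to under 300 counts 33.3% and 6.34%. From 300 to under 1000 counts it was 1 of 20 transcripts of the set and 0.781% of the others, and at 1000 or more 1 of 11 transcripts and 0.0369%. With 1 control library left out, fewer libraries can be at 0. The share of the set chosen by the rule was then 27.96%, 27.0% and 16.7% without control replicates 1, 2 and 3, against 0.645% to 0.708% of the others.

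In 27 transcripts a single control library held at least 90% of the control counts. It was control replicate 1 in 9 of them, replicate 2 in 7 and replicate 3 in 11. The sequence of 3555 bases had 387 counts in control replicate 3 and 0 in every other library of either group. The sequence of 3658 bases had 210 counts in control replicate 1 and rounded to 0 in all others. In the 21 transcripts found in a single control library, the remaining control libraries rounded to 0, as almost all MRW libraries did.

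Where a transcript was missing depended on its length and on the library. Control replicate 3 was at 0 for 21 of the 48 sequences over 4000 bases in the set, against 6 for control replicate 1 and 9 for control replicate 2. For the 71 shorter ones the numbers were 9, 11 and 16 for control replicates 3, 1 and 2. The most frequent pattern after presence in all 3 was presence in control replicates 1 and 2 with replicate 3 at 0, seen in 19 transcripts with a median length of 6504 bases. Sequences over 4000 bases took 0.841%, 0.846% and 0.839% of all counts in MRW replicates 1, 2 and 3, and 0.726%, 0.801% and 0.603% in control replicates 1, 2 and 3. Control replicate 3 was thus the lowest of the 6 in long sequences, while the MRW libraries held more of them than any control library. The part of this library difference in the zeros was not tested.

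The set consisted mainly of long sequences. Its median length was 3467 bases (quartiles 2421 and 5324.5), against 1560 bases for the other sequences with a control sum of at least 30. Sequences over 4000 bases made up 48 of the 119 (40.3%) and 2.84% of the others, and sequences of up to 1000 bases 3 (2.52%) and 28.4%. The shortest in the set had 704, 743 and 756 bases and the longest 8268, 8343 and 8368. The 392 sequences called at least 4-fold lower in MRW that kept a residual level had a median length of 994.5 bases, and 1.02% of them were over 4000 bases. The medians of the set and of these 392 thus lay on opposite sides of that of all sequences tested, 1562 bases. Length was not used by either rule, but the level differed. The median control sum was 105 counts in the set and 2737.5 in the 392. All 392 had passed the filter on low counts, which kept 57 of the 119, with a median length of 2798 bases. Lengths of the set and of the 392 at equal level were not compared.

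The share of sequences that met the rule was higher in each longer class of length. Among sequences with a control sum of at least 30 it was 0.0797% up to 1000 bases and 0.320% above that and up to 2000. From there it was 0.969% up to 3000, 1.99% up to 4000 and 7.02% up to 6000 bases. Over 6000 bases it was 28.9%, or 24 of 83 sequences. The MRW libraries, in which these sequences were missing, gave a larger share of their counts to sequences over 4000 bases as a class than any control library did, as given above. That is a share of the whole class and not of the set, and its part in the zeros was not tested.

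**Figure D3:**
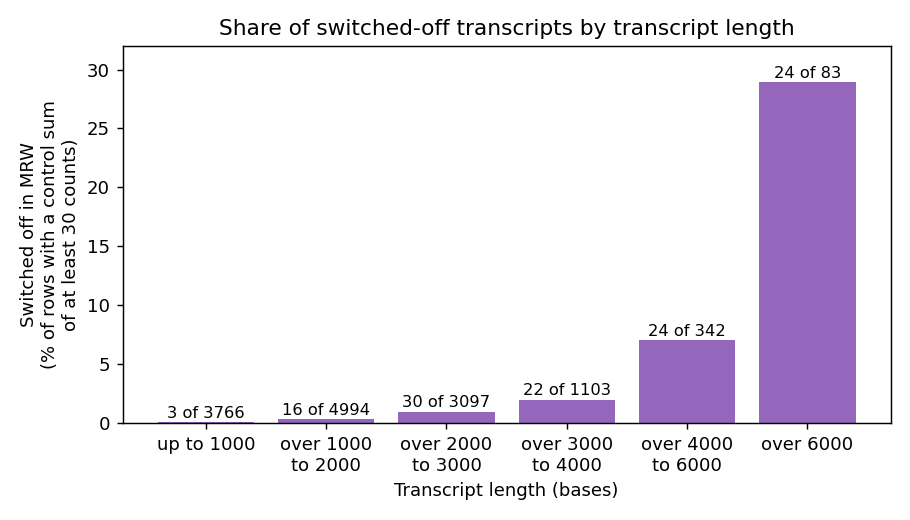
Share of sequences switched off in MRW by transcript length in bases, as a percentage of the sequences with a control sum of at least 30 counts, with the numbers above the bars. The share is 0.0797% in the shortest class and 28.9% in the longest.

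Long sequences were also scarcer, so the share was taken within classes of control level. From 30 to under 100 control counts it was 2.08% up to 2000 bases, 14.6% up to 4000 and 55.8% above. From 100 to under 300 counts it was 0.463%, 2.20% and 18.8% in the same order, and at 300 counts or more 0.160%, 0.407% and 1.37%. Restricted to sequences found in all 3 control libraries, the shares from 30 to under 100 counts were 1.72%, 8.33% and 24.0%. They rest on 3, 10 and 6 transcripts of the set. From 100 to under 300 counts they were 0.242%, 1.67% and 14.3%, resting on 1, 9 and 10 transcripts. The share was thus higher for longer sequences in each of these classes of control sum. The class of 300 counts or more has no upper limit, so level was not held equal within it. Its share above 4000 bases rests on 4 of 293 sequences. With each library left out in turn, the set chosen by the rule had a median length between 3081.5 and 3471.5 bases, and 34.2% to 41.2% of it was over 4000 bases.

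Counts with decimals were found in all 119 transcripts, where a value counts as whole if it lies within 0.005 of a whole number. In 117 of them every control value above 0 carried decimals. Among the other sequences with a control sum of at least 30, control counts carried decimals in 46.9%, and among the 392 steeply lowered sequences with a residual level in 59.7%. The share differed with the level. Decimals were found in 66.9% of the others from 30 to under 100 control counts, in 53.5% from there to under 300, in 44.2% to under 1000 and in 46.4% above, against all of the set in each of these classes. By length they were found in 39.6% of the others over 4000 and up to 6000 bases and in 57.6% above 6000.

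Sequences at 0 in some replicates of a treatment and present in others also carried decimals. The 157 sequences outside the set with at least 30 counts in control and 0 in a control library had decimals in 151 cases (96.2%) and a median length of 2456 bases. In MRW, 148 sequences held at least 30 counts with 0 in an MRW library and were not absent from control. Of these, 145 had decimals in MRW (98.0%), and their median length was 2511 bases. Absence from a library among replicates of one treatment was therefore also seen almost wholly in sequences whose counts carry decimals, although their median length lay below that of the set. How reads were divided among similar sequences, and its part in the zeros in MRW, was not tested, since the sequences themselves were not used here.

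**Figure D4:**
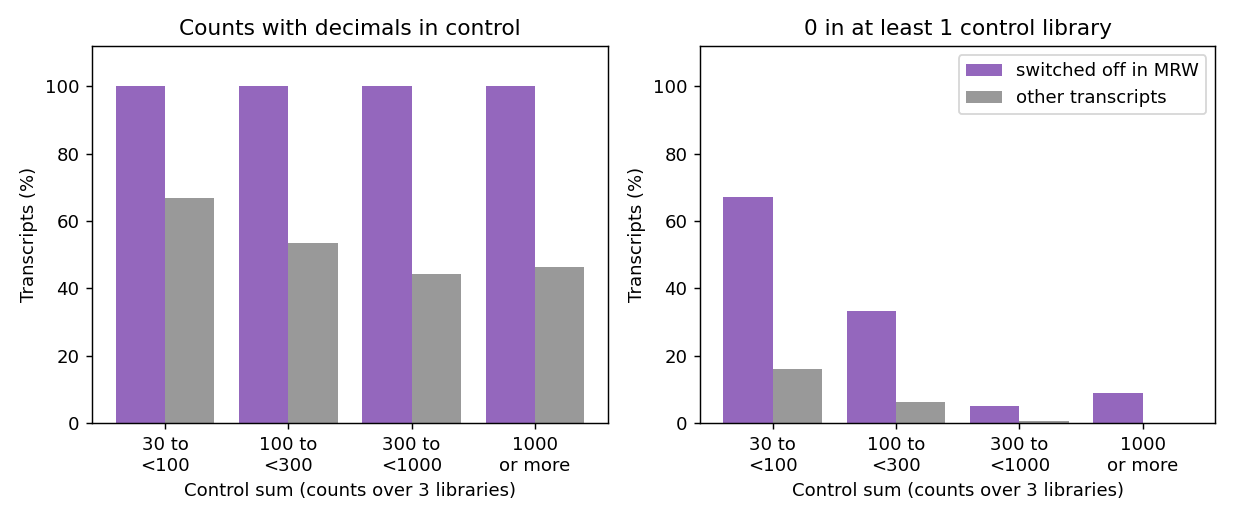
Percentage of sequences with decimals in their control counts (left) and with 0 counts in at least 1 control library (right), by control sum, for the 119 switched-off transcripts and the other sequences. Decimals are found in 100% of the set in every class, and zeros within the control group are more frequent in the set in every class.

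The identifiers give, after the letter f, the number of full-length reads behind each sequence. It was 2, the lowest found in the set, for 79 of the 119 (66.4%) and at most 5 for 114. None rested on more than 10, against 9.81% of the other sequences with a control sum of at least 30. Of those others 41.7% rested on 2 reads. The number follows the level, and at equal control level the shares lay close together below 300 counts. From 30 to under 100 control counts 63.8% of the set and 73.4% of the others rested on 2 reads, and from 100 to under 300 counts 70.0% and 68.2%. From 300 to under 1000 counts the shares were 70.0% and 53.2%, and at 1000 or more 63.6% of 11 transcripts and 31.6%.

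In the test across all sequences (edgeR quasi-likelihood test with Benjamini-Hochberg adjustment at 0.05), the filter on low counts kept 57 of the 119 and removed 62. All 57 were called lower in MRW, where 11.9% of the 13331 sequences tested were called lower and 3.37% were called at least 4-fold lower. The filter kept a transcript of this set only through its control counts, so this outcome was fixed by the choice and says nothing more about the set. The 57 had at least 1 count in each control library, and their adjusted p lay between 1.42e-06 and 0.0203. The 62 removed had a median control sum of 64.5 counts and a median length of 4198.5 bases. They include all 51 transcripts with a control library at 0, the sequence of 2548 bases among them.

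Sequences of similar length that rose in MRW were counted next. Called higher in MRW were 5.63% of the sequences tested. At least 1 of them lay within 1% of the length of 94 of the 119 transcripts (79.0%), against 95.8% of all sequences tested. These pooled shares show no excess beside the set, but they mix lengths. Every transcript of the set up to 4000 bases had such a neighbour, as did 90.5% to 100% of all tested by class of length. The measure was thus near its ceiling there and could show little excess. Limited to sequences called higher by at least 2-fold the shares over all lengths were 36.1% of the set and 36.5% of all tested. Among sequences over 4000 bases, where few others are of similar length, a riser lay within 1% for 47.9% of the set and 59.3% of all tested. The sequence of 7358 bases had 5 others within 1% of its length, and none was called higher.

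For the abundant short transcripts of the set the risers with the largest gain were far more abundant than the transcript lost. Beside the sequence of 1703 bases, which lost 24.7 CPM, a sequence of 1702 bases was at 221 ± 7.65 CPM in MRW and 179 ± 9.19 CPM in control (SD, n = 3 each). Beside the sequence of 756 bases, which lost 21.6 CPM, another of 756 bases was at 449 ± 54.3 CPM in MRW and 323 ± 31.8 CPM in control. Their gains of 41.8 and 126 CPM exceeded the losses. The largest gain within 1% of length was at least the loss for 92 of the 119 transcripts (77.3%). It was so for 82.3% of the 6218 other sequences tested whose mean CPM was lower in MRW. Among the 392 steeply lowered sequences with a residual level the share was 50.3%. The median loss differed, at 1.51, 3.49 and 32.6 CPM in the same order, so these shares were not compared at equal loss. In the set the share was 100% in each class of length up to 4000 bases and 43.8% above.

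Some risers matched a transcript of the set in both length and size. The riser nearest in length gained within 20% of the loss for 7 of the 119 (5.88%), against 6.43% of those 6218 sequences. The transcript of 2282 bases lost 2.85 CPM on average. It had 0, 0 and 226 counts in control replicates 1, 2 and 3, so this loss came from control replicate 3 alone. Beside this transcript a sequence of 2286 bases was at 9.79 ± 0.650 CPM in MRW and 6.998 ± 0.256 CPM in control (SD, n = 3 each), a gain of 2.80 CPM. The transcript of 3038 bases lost 4.94 CPM, and beside it a sequence of 3039 bases was at 11.05 ± 2.35 CPM in MRW and 5.40 ± 0.667 CPM in control, a gain of 5.65 CPM. Counting any riser within 1% of length, a gain within 20% of the loss was found for 31 of the 119 (26.1%), against 20.6% of the 6218 and 25.5% of the 392 steeply lowered sequences with a residual level. Such matches were thus about as frequent beside other lowered sequences, and which of them, if any, are related sequences was not tested.

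The 2 risers with the highest fitted fold change within 1% of the length of a transcript in the set were scarce. Transcript transcript_HQ_Ld3_vu_transcript5773/f2p0/2796, of 2797 bases, had 123, 124 and 94 rounded counts in MRW and 0 in all control libraries, with an edgeR adjusted p of 0.000131. The other, transcript_HQ_Ld3_vu_transcript2481/f11p0/3629, of 3629 bases, had 80, 48 and 133 counts in MRW and 0, 0 and 10 in control (log2 fold change 4.56, edgeR adjusted p = 0.0141). Its call was lost without MRW replicate 3, where the log2 fold change was 4.22, and the fold change was 9.32 on the log2 scale without control replicate 3, the one control library that held it. The next, of 3096 bases, had 150, 121 and 190 counts in MRW and 22, 0 and 0 in control. The set holds a sequence 1 base shorter, of 3095 bases, with 0 in each MRW library and 12, 29 and 32 counts in control. These risers were picked for their rise in the same libraries, so the contrast is a description.

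The reverse rule, at most 3 counts in control and at least 30 in MRW, was met by 28 sequences. Decimals were found in MRW in 27 of these 28, as in control in all 119 of the set. Their median length was 2705 bases, against 3467 in the set, and 10.7% of them were over 4000 bases, against 40.3%. A library at 0 within the group that held them was found in 21 of 28, against 51 of 119 in the set. The median sum in that group was 71.5 counts for the 28 and 105 for the set, so zeros were not compared at equal level. The filter on low counts kept 3 of the 28 and 57 of the 119. Of these 28, 4 lay within 1 base of a transcript of the set in length (14.3%), against 4.86% of the 13252 other sequences with at least 30 counts in MRW that are in neither set. Over 2000 bases the shares were 4 of 19 (21.1%) and 7.28%. Within 5 bases the shares over all lengths were 17.9% and 16.5%, so the difference was seen at 0 and 1 base and not at 5. It rests on 4 sequences and on a distance chosen after the lengths were seen.

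The 4 sequences formed 5 pairs with transcripts of the set. At 3498 bases, 1 sequence had deposited counts of 86, 0 and 93.4 in MRW and 0 in each control library. The transcript of the set with the same 3498 bases had 0 in each MRW library and 58.6, 18.19 and 114.92 in control. The rule of the set and the reverse rule fix opposite patterns between the groups for any such pair, so the contrast shows no link. Both sequences were absent in MRW replicate 2.

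At 2615 bases, 1 sequence had 0, 50.05 and 46.93 in MRW and 0 in each control library. Its counterpart of 2615 bases in the set had 0 in each MRW library and 0, 0 and 58.44 in control. The sequence of 2797 bases named above stood beside 2 transcripts of 2798 bases in the set, both at 0 in MRW. One of these had 31.01, 33.52 and 60.04 in control and the other 0, 0 and 33.36. The fourth, of 3041 bases, had 4.48, 25 and 0.67 in MRW and 0 in each control library, beside a transcript of 3042 bases with 0 in each MRW library and 80.56, 64.51 and 70.72 in control. Equal length does not show that 2 sequences are related, and their relation was not tested. The pair at 2797 and 2798 bases with counts in all 3 libraries of each group is the one that was complete in both groups at over 30 counts per library.

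**Figure D5:**
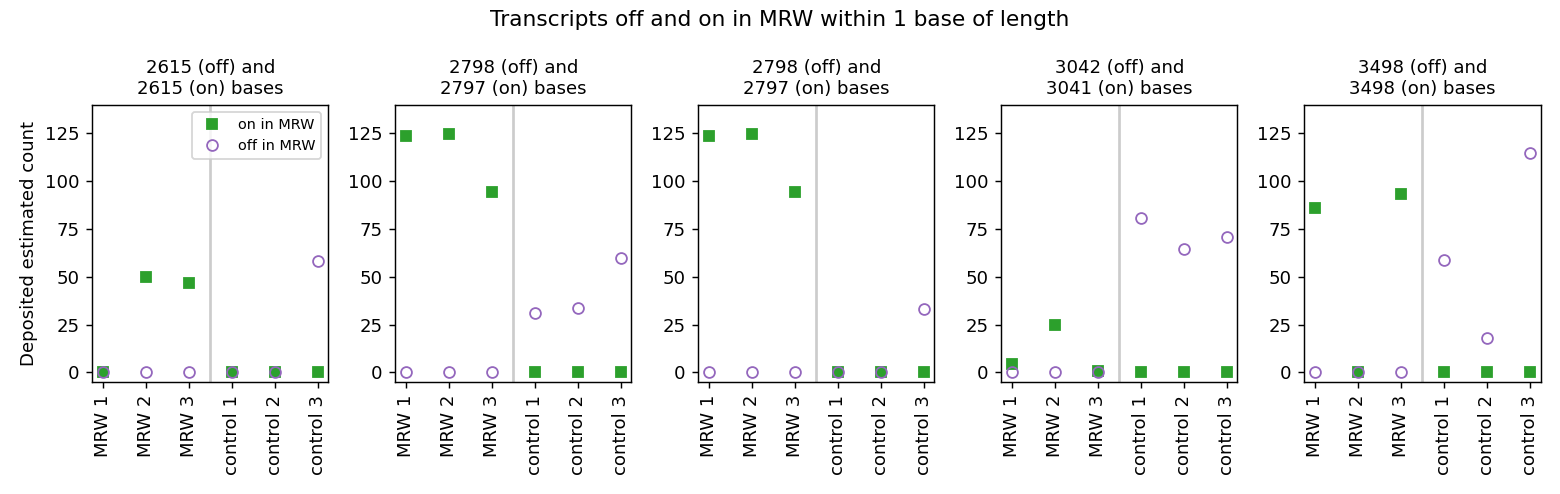
Deposited estimated counts in each library for the 5 pairs of a transcript switched off in MRW (open circles) and a sequence switched on in MRW (filled squares) that differ by at most 1 base in length. MRW libraries stand left of control. In each pair 1 sequence has counts in MRW and 0 in control and the other has counts in control and 0 in MRW.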

How the data were processed

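RNA from 6 samples, 3 given MRW and 3 controls, was sequenced. The authors deposited a table of estimated counts (not normalized) and FPKM values for 14140 sequences. The submitters' processing notes name Subread without a role or version, and the design text gives soybean as the aligned genome, although the rows carry lily transcript identifiers. The counting program and its use of strand: not given in the sources used here. Estimated counts were rounded. Sequences were filtered with filterByExpr (minimum count 10, total 15; 13331 kept, 809 removed), scaled by TMM (factors 0.942 to 1.031) and tested with edgeR's quasi-likelihood functions glmQLFit and glmQLFTest (version 4.0.16 under R 4.3.3, checked on simulated data). DESeq2 1.42.0 was an alternative. No batch is given in the labels, so p-values measure the spread between these samples. The transcripts of the set and all comparisons were chosen with earlier results of these data known. Named by rule were the 10 highest by control CPM, the extremes of control sum, length and variation, those with MRW counts, and the strongest risers of similar length; 21 transcripts found in 1 control library tie for the largest variation. At most 2 identifiers are printed for each direction. The pairs within 1 base, the sequences just outside the rule, and those of 3555, 3658 and 3096 bases were chosen after their values were seen. No gene list could be matched, and no sequences were printed because none were used here.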

Additional observations from a re-analysis of the deposited data

How the results depend on the processing

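The set of 119 became 117 with unrounded counts, 110 with an MRW sum of 0, 132 with up to 10 MRW counts, and 120 with TMM-scaled counts. It shrank to 61 with a control sum of at least 100 and to 58 with at least 10 counts in each control library, by construction. With each library left out it numbered 93 to 146. The median control level of 1.51 CPM lay between 1.502 and 1.85 under every alternative. Decimals were found in 117 transcripts with a tolerance of 0.05 and in 119 with 0.0005. The 94 transcripts with a riser of similar length were 85 within 0.5% and 117 within 5% of length, and 43 with risers of at least 2-fold, by construction; with each library left out they were 79 to 97. Over all sequences 2334 were called, 2662 with DESeq2, 2333 with RLE factors and 2286 without a filter, and 1603 to 3354 with each library left out. With the replicate number as a block 1844 were called; the deviations of same-numbered libraries from their groups correlated at -0.068 to -0.014, which does not pair them. The riser of 3629 bases lost its call without MRW replicate 3. Shares by length within control level, lengths with each library left out, the reverse rule by distance in length and the match of gain and loss were added after seeing the data. At 30 counts over 3 libraries, depth cannot tell absence from a low level.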
